A study of Mus musculus with 24 samples.

Results

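The 78 mouse genes for proteins named after the mitochondrial ribosome are described here across obstruction of the ureter and its relief. They are the protein-coding rows of the deposited gene table whose symbol starts with Mrpl or Mrps followed by a number, 78 of 14785 rows, of which 13071 are protein coding. The values are FPKM, fragments scaled to transcript length and to the depth of the library, from polyA-selected RNA of kidney tissue that the series title calls cortical. The table does not name the unit, which was inferred from its values. Mice were male, of the strain labelled C57/BL6, and aged 8 to 9 weeks at the start. Each of 6 groups has 4 animals. The series description says that 4 of 10 animals per group were sequenced. It describes 20 libraries, which do not include the UUO2 group below. Sham is the operated control. UUO2 and UUO7 are kidneys taken 2 and 7 days after unilateral ligation of the ureter. R1W, R2W and R4W are kidneys obstructed for 7 days, after which the ureter was reimplanted and the animals were kept for 1, 2 and 4 weeks. How long after surgery the Sham kidneys were taken is not given in the sources used here, and no animal carried an allele or agent beyond the surgery in the labels. R4W replicate 2 is named R4W in its title, which set its group, but its treatment label says 2 weeks of reversal.

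Mitochondria keep their own ribosome, which translates the few proteins still encoded by mitochondrial DNA, all of them core subunits of the respiratory chain or of ATP synthase. Its large subunit joins amino acids and its small subunit reads the messenger RNA; the ribosomal RNAs come from the mitochondrial genome, while every protein is encoded in the nucleus, made in the cytosol and imported. The kidney's proximal tubule is rich in mitochondria because salt and solute reabsorption there runs on oxidative metabolism. Symbols do not always give the place of a protein: Mrps30 and Mrps18a sit in the large subunit, and Mrps36 is a subunit of the 2-oxoglutarate dehydrogenase complex. With these placed, 51 members belong to the large subunit, 26 to the small subunit and 1 to neither. Proteins with a counterpart in bacterial ribosomes make up 46 of the 78, and another 31 ribosomal members are specific to mitochondria.

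FPKM in the 24 libraries summed to between 717415 and 830179, and the steps between low values implied depths from 24895080 to 35640000 fragments for all but the UUO2 libraries. No such steps were found in the 4 UUO2 libraries, which are also not covered by the description of a 20-library sequencing run. Within groups, libraries correlated at r = 0.962 to 0.992 across genes. The scale matters for every count below. As deposited, the log2(FPKM + 1) difference from Sham of the median gene was 0.09 for UUO2, 0.42 for UUO7, 0.37 for R1W, 0.32 for R2W and 0.30 for R4W. Counts of called members in each comparison are therefore given as deposited and again after median-ratio rescaling, which divides each library by its median ratio to the average library and brings these medians close to 0. A gene is called higher or lower when limma's moderated test over all 14785 genes gave a Benjamini-Hochberg adjusted p under 0.05.

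All 78 members were detected in all 24 libraries. Mrps21, a small-subunit protein with a bacterial counterpart, had the highest mean over the libraries at 369 FPKM, followed by the large-subunit proteins Mrpl52 at 209 and Mrpl42 at 185. At the other end were Mrps30 at 10.7, Mrpl1 at 7.34 and Mrpl23 at 4.52 FPKM. Another row of the table, for the pseudogene Mrpl23-ps1, averaged 51.8 FPKM in Sham and 122 in UUO7, far above Mrpl23 itself, so the division of fragments between these copies, and with it each value of Mrpl23, is uncertain. Of the 78 members, 33 share exon bases with another annotated gene and 23 with another protein-coding gene. Whether counting used strand is not given in the sources used here, so for those members reads of an overlapping gene may be included.

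Summed over the 78 genes, FPKM in UUO7 was near the Sham level as deposited and under it after rescaling; no test was made of the sum. The sum was 5175 ± 136 in Sham, 5426 ± 236 in UUO2, 5448 ± 371 in UUO7, 5410 ± 490 in R1W, 5038 ± 234 in R2W and 4703 ± 71.96 in R4W (mean ± SD, n = 4 in each). Only the R4W libraries, at 4659 to 4810 FPKM, all lay under the Sham libraries, at 4974 to 5272. The rescaled sums were 6364.5 ± 284 in Sham, 6071 ± 214 in UUO2, 4782 ± 405 in UUO7, 4887 ± 610 in R1W, 4736 ± 503 in R2W and 4452 ± 123 in R4W. On that scale every UUO7, R1W, R2W and R4W library lay under every Sham library, whose lowest was 5998. As a share of a library's summed FPKM the members held 0.648% to 0.686% in Sham, 0.685% to 0.736% in UUO7 and 0.633% to 0.664% in R4W. By that share UUO7 lay above Sham but for a small overlap, and R4W overlapped Sham.

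**Figure D1:**
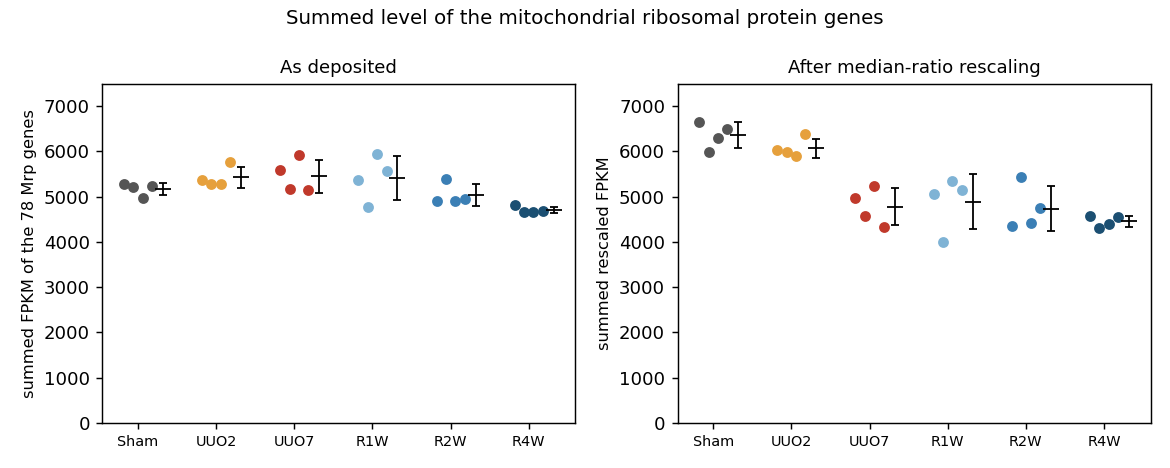
Summed level of the 78 mitochondrial ribosomal protein genes by group, in FPKM as deposited (left) and after median-ratio rescaling (right); points are libraries, and the bar beside them is the mean with its SD (n = 4). As deposited, the 4 R4W libraries lie under the 4 Sham libraries; after rescaling all libraries of UUO7 and of the reversal groups do.

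After 7 days of obstruction members were called in both directions as deposited, while most were called lower after rescaling. As deposited, 27 of 78 were higher than in Sham and 20 were lower, when 60.1% of all genes were called higher and 17.8% lower. After rescaling 3 were higher and 61 lower, against 36.5% of all genes higher and 36.5% lower. The median member differed from Sham by 0.02 as deposited and by -0.46 after rescaling, on the log2 scale, when the median of all genes was 0.42 as deposited. The 4 libraries of UUO7 all lay above the 4 of Sham for 22 members and all below for 21 as deposited (56.9% and 16.8% of all genes), and for 3 and 54 after rescaling (34.3% and 34.1%). The 3 members higher on both scales were Mrpl52, Mrpl33 and Mrpl23, and 20 members were lower on both. Another 11 members were called higher as deposited and lower after rescaling, so their direction depends on the scale.

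Mrpl52 (ENSMUSG00000010406.12, chr14:54426909-54429756, plus strand, mm10), a large-subunit protein specific to mitochondria, had the largest rise on the log2(FPKM + 1) scale, where the added 1 makes the change of a low gene such as Mrpl23 smaller. Its FPKM was 125, 131, 115 and 122 in the Sham libraries and 326, 257, 323 and 297 in UUO7. The groups did not overlap, and every UUO7 library was above every Sham library by a wide margin. The log2 difference was 1.28 ± 0.12 (SE; adjusted p = 9.2e-09, limma), or 0.79 after rescaling. Mrpl33 (ENSMUSG00000106918.3, chr5:31596935-31664384, plus strand), a large-subunit protein with a bacterial counterpart, went from 79.7, 80.2, 70.3 and 75.5 FPKM to 179, 173, 187 and 165. These groups did not overlap either, and the difference was 1.19 ± 0.12 (adjusted p = 1e-08, limma), or 0.71 after rescaling. Mrpl23 rose from 2.52 to 6.46 FPKM, a difference of 1.08 (adjusted p = 8.3e-08, limma), or 0.70 after rescaling, with the limit from its pseudogene given above.

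The 3 largest falls were of large-subunit proteins with bacterial counterparts. Mrpl12 (ENSMUSG00000039640.7, chr11:120484613-120489065, plus strand, mm10), which forms the flexible stalk that recruits translation factors and also binds the mitochondrial RNA polymerase, had 201, 199, 199 and 202 FPKM in the Sham libraries and 135, 117, 132 and 113 in UUO7. The groups were far apart, with little spread in Sham, and the log2 difference was -0.69 ± 0.11 (adjusted p = 1e-05, limma), or -1.17 after rescaling. Mrpl16 (ENSMUSG00000024683.5, chr19:11770415-11774944, plus strand), whose bacterial counterpart lies near the peptidyl transferase centre, had 46.3, 39.6, 44.2 and 43.1 FPKM in Sham and 27.5, 26.6, 26.7 and 25.1 in UUO7, a fall of the same size (-0.69 ± 0.08, adjusted p = 7.9e-08, limma). Mrpl3 had the largest fall and the largest spread. Its FPKM was 34.3, 34.9, 34.8 and 30.0 in Sham and 21.9, 22.1, 10.3 and 23.3 in UUO7, where replicate 3 stood far below the others. The log2 difference was -0.82 ± 0.24 (adjusted p = 0.0044, limma), or -1.29 after rescaling, and the call held without any 1 library.

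Sequences around the transcription start are shown for the 2 members with the largest rises in UUO7 and the 3 with the largest falls. Mrpl23, whose rise came next and was larger than any of these falls, is not shown. Each run covers 130 bases before the RefSeq start and 20 after it on build GRCm38.p6, plus strand, and capitals mark matches to the motifs searched. Mrpl52 is at chr14:54426779-54426928, Mrpl33 at chr5:31613821-31613970, Mrpl3 at chr9:105053138-105053287, Mrpl12 at chr11:120484507-120484656 and Mrpl16 at chr19:11770285-11770434. For Mrpl33 the RefSeq start lies inside the gene span of the deposited table, which begins at 31596935.
Mrpl52: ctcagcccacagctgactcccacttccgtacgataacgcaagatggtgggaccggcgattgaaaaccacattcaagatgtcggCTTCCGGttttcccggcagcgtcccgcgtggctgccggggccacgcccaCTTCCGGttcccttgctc
Mrpl33: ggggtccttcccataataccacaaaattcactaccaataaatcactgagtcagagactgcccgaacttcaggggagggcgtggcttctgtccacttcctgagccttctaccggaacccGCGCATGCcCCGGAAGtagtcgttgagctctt
Mrpl3: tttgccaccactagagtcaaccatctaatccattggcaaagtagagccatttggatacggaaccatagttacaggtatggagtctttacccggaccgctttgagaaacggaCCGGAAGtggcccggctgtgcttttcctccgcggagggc
Mrpl12: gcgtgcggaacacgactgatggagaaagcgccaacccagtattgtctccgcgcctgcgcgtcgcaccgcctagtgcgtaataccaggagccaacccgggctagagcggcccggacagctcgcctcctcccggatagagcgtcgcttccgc
Mrpl16: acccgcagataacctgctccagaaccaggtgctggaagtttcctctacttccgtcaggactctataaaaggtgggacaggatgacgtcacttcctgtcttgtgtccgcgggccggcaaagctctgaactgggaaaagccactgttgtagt

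The motifs were searched on both strands in the RefSeq windows of 300 bases, from 250 before to 50 after the start. They were GCATGCGC, the core of the site of nuclear respiratory factor NRF1, CCGGAAG of the ETS family that includes GABP, AAGATGGC of YY1, GGGCGGG of the SP family, and the E-box CACGTG; no letters of one lie within another. In the capitals above, Mrpl52 has ETS matches on the minus strand that begin 47 bases before the start and at base 3 of the transcript. Mrpl33 has the NRF1 core 12 bases and an ETS match 3 bases before its start, and Mrpl3 has an ETS match 19 bases before its start. The windows of Mrpl12 and Mrpl16 hold none of the 5 letter strings. RefSeq windows matched 69 of the 78 members, with 75 windows in all. The ETS letters were in 34.7% of the member windows and in 16.4% of the 13597 windows of genes in the table. The YY1 letters were in 16.0% against 4.1% and the NRF1 core in 10.7% against 4.8%. The SP letters, in 42.7% against 44.5%, and the E-box, in 9.3% against 9.6%, had similar shares. Over all 32851 windows the shares were 8.9% for ETS, 2.7% for YY1, 2.7% for the NRF1 core, 25.6% for SP and 7.2% for the E-box. Of members with a window, ETS matches were held by 10 of 25 called higher in UUO7 than in Sham as deposited, by 4 of 18 called lower and by 12 of 26 not called. YY1 matches were held by 1 of the 25, 4 of the 18 and 7 of the 26, and the split by rescaled calls was not made. These are letter matches only, with no measure of binding.

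**Figure D2:**
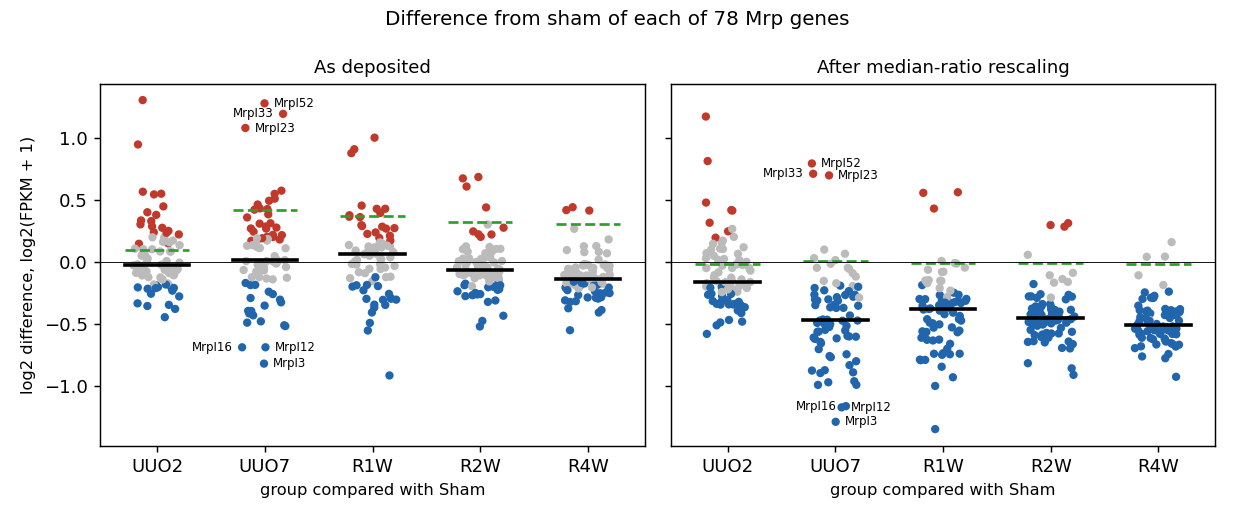
Log2 difference from Sham of each of the 78 members in the 5 other groups, as deposited (left) and after rescaling (right); red points are called higher, blue lower and grey not called, the black bar is the members' median and the dashed green bar the median of all genes. In UUO7 the members' median is 0.02 as deposited and -0.46 after rescaling, and Mrpl52, Mrpl33 and Mrpl23 lie above the rest on both sides.

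By subunit, 19 of 51 large-subunit members were higher and 11 lower in UUO7 than in Sham, or 3 and 42 after rescaling, when 60.1% and 17.8% of all genes were called as deposited and 36.5% each way after rescaling. Of the 26 small-subunit members, 8 were higher and 8 lower as deposited; after rescaling 18 were lower and the rest were not called. Mrps5, the counterpart of a bacterial protein of the messenger entry site, fell from 71.3 ± 5.94 to 49.7 ± 2.52 FPKM (-0.51, adjusted p = 4.8e-06, limma; -0.99 rescaled). Mrps22 and Mrps34, both specific to mitochondria and both known from inherited mitochondrial disease in people, fell from 18.2 to 13.3 and from 77.4 to 57.9 FPKM. Their differences were -0.43 (adjusted p = 0.00049) and -0.41 (adjusted p = 7.7e-05, limma), or -0.89 for each after rescaling. Of the exon bases of Mrps34, 63.4% overlap Mapk8ip3 on the other strand and 37.0% overlap Nme3 on the same strand. Mrps36, the dehydrogenase subunit, fell from 112 to 80.2 FPKM (-0.48, adjusted p = 0.0003, limma; -0.96 rescaled).

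Several members sat at the Sham level in FPKM and under it after rescaling. Mrpl41 had 60.0 ± 1.58 FPKM in Sham and 60.6 ± 6.91 in UUO7, a difference of 0.01, or -0.47 rescaled and then called lower. Mrps12, the counterpart of the bacterial protein at the decoding centre, had 65.7 and 72.8 FPKM (0.14, or -0.34 rescaled), and Mrpl44 34.8 and 31.9 (-0.12, or -0.59 rescaled). Mrps18a had 83.1 and 80.9 FPKM (-0.04, or -0.52 rescaled). Mrps6 had 106, 185, 106 and 139 FPKM in Sham and 131, 120, 144 and 123 in UUO7, so the groups overlapped (-0.01, or -0.50 rescaled). None of these 5 passed the test as deposited, and all were called lower after rescaling. Mrpl48, Mrpl11, Mrpl21, Mrps17, Mrps30 and Mrpl2 had the largest differences among the members called in opposite directions. As deposited these were 0.28, 0.27, 0.27, 0.24, 0.22 and 0.22; after rescaling they were -0.20, -0.19, -0.21, -0.23, -0.23 and -0.27. The calls of Mrpl2 and Mrps30 as deposited were lost without UUO7 replicate 3 (0.13 and 0.17) and in 2 and 1 of the fits without a Sham library. The rescaled calls of all 6 were lost in some of the 8 fits without 1 library: Mrps30 in 6, Mrpl2 in 5, Mrpl48 and Mrpl21 in 4 each, Mrps17 in 3 and Mrpl11 in 2.

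**Figure D3:**
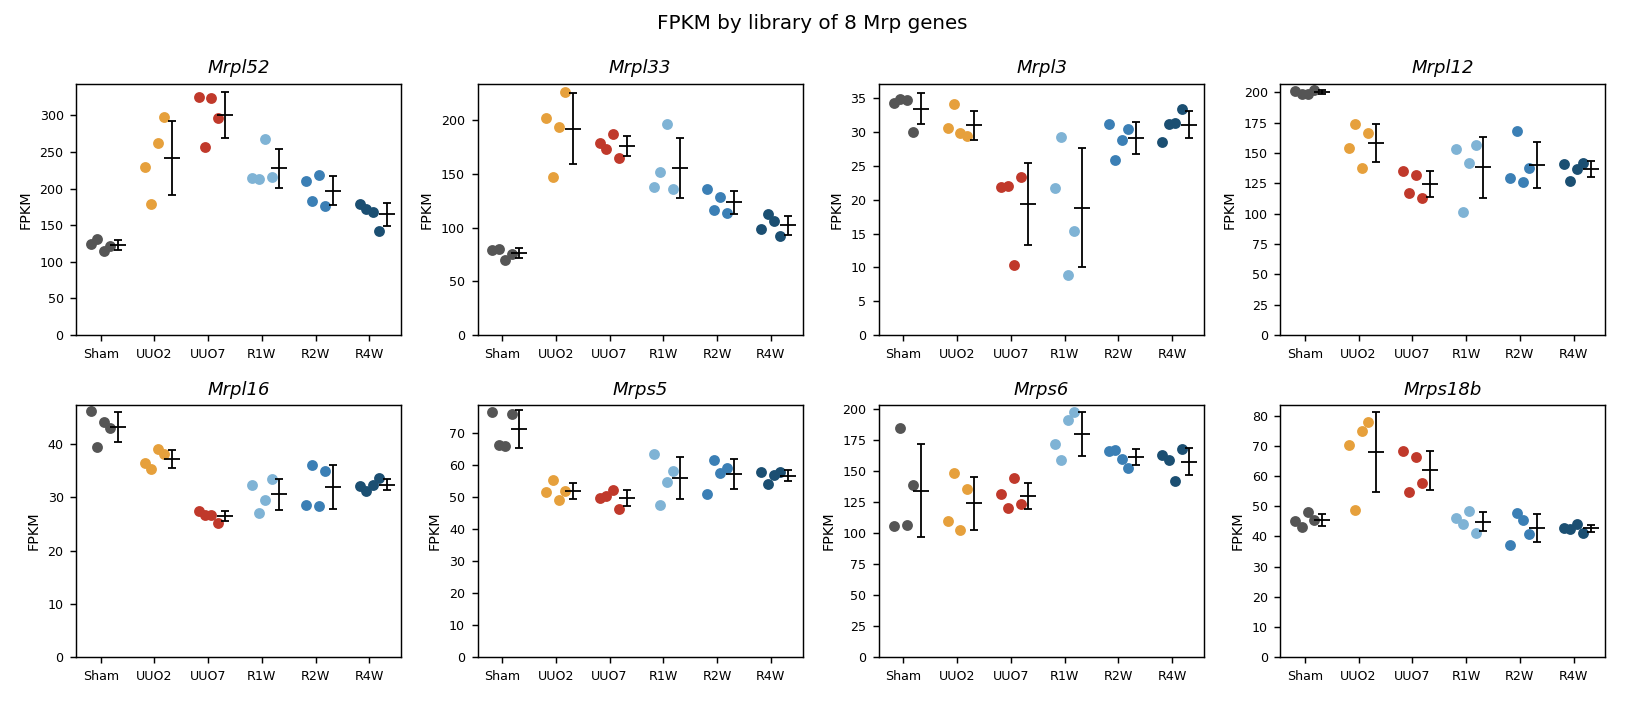
FPKM of 8 members in each library by group, each panel from 0 on its own scale; points are libraries and the bar beside them is the mean with its SD (n = 4). Mrpl52 and Mrpl33 are high in obstruction, and their means are lower with each later group after reversal, though libraries of some successive groups overlap. Mrpl12, Mrpl16 and Mrps5 stay under Sham in every later group. Mrpl3 has a single low library in UUO7 (10.3) and spreads from 8.82 to 29.4 in R1W.

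Members with a bacterial counterpart and members specific to mitochondria were described side by side. Of the 46 with a counterpart, 17 were higher and 9 lower in UUO7 than in Sham (2 and 34 rescaled), with medians of 0.12 and -0.36; the shares of all genes were 60.1% and 17.8%, or 36.5% each way rescaled. Of the 31 without one, 10 were higher and 10 lower (1 and 26 rescaled), with medians of -0.01 and -0.49. The difference between these classes was not tested.

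Part of the pattern was present after 2 days. In UUO2, 19 members were higher than in Sham and 16 lower as deposited (32.3% and 17% of all genes), and 8 were higher and 25 lower after rescaling (25.3% and 25.5%). The median was -0.02, or -0.16 rescaled. Mrpl33 had the largest difference, with 202, 147, 194 and 226 FPKM in UUO2, all above Sham (1.30 ± 0.12, adjusted p = 2.4e-08, limma; 1.17 rescaled). Mrpl52 had 230, 179, 262 and 297 FPKM (0.95, adjusted p = 3e-06, limma; 0.81 rescaled). Both genes were thus high by day 2, in all 4 libraries. Mrpl23 followed at 4.31 FPKM (0.57, adjusted p = 0.00067, limma; 0.48 rescaled). The largest falls were of Mrps5 (-0.44, adjusted p = 8.7e-05), Mrps31 (-0.38, adjusted p = 0.0026) and Mrpl39 (-0.35, adjusted p = 0.0002, all limma), and each remained called after rescaling. Mrps5 had 51.7, 55.3, 49.3 and 51.9 FPKM in UUO2, against 66.0 to 76.7 in Sham. Mrpl12 was already down at 158 FPKM (-0.34, adjusted p = 0.014, limma), a call lost without UUO2 replicate 3 (-0.28). The count of 16 lower members was 8, 10 and 9 without Sham replicates 1, 3 and 4, and 9 and 10 without UUO2 replicates 1 and 3.

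Between day 2 and day 7, 15 members were higher and 12 lower in UUO7 than in UUO2 as deposited (52% and 14.7% of all genes). After rescaling 57 were lower and 0 higher in limma, against 31.9% of all genes lower and 30% higher. At an unadjusted p under 0.05 the members' counts were 59 and 0, and the share of all genes was not counted. The authors' deposited table, from the same libraries, has 0 members higher in that comparison and 61 lower (27.9% and 33.7% of its genes). Mrpl3 went from 30.6, 34.2, 29.9 and 29.5 FPKM in UUO2 to the UUO7 values above (-0.71, adjusted p = 0.014, limma). Without UUO7 replicate 3 this was -0.45 with an adjusted p of 0.08 as deposited; the rescaled difference of -1.05 remained called without it, at -0.79. Mrpl16 fell from 37.3 to 26.5 FPKM (-0.48, adjusted p = 1.8e-05) and Mrps22 from 17.4 to 13.3 (-0.37, adjusted p = 0.0028, limma). Both falls were larger after rescaling, at -0.82 and -0.69. Mrpl23 (0.51), Mrps9 (0.45) and Mrps33 (0.35) were the largest rises as deposited; after rescaling they were 0.22, 0.10 and -0.003 and none was called. Mrpl9, Mrpl11 and Mrps24 were called higher as deposited, at 0.17, 0.16 and 0.14, and lower after rescaling, at -0.18, -0.17 and -0.21. As deposited, the calls of Mrpl11 and Mrps24 were lost in 5 and 4 of the 8 fits that left out 1 library, and after rescaling in 6 and 1.

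The UUO2 libraries stand apart in the 2 mitochondrial ribosomal RNAs. The large mitochondrial ribosomal RNA mt-Rnr2 was at 1821 to 2380 FPKM in them and at 133 to 400 in the other 20 libraries. The small one, mt-Rnr1, was at 2343 to 2832 against 342 to 709. The summed FPKM of the 13 proteins encoded by mitochondrial DNA was 107240 to 132610 in UUO2 and overlapped the 105490 to 115050 of Sham. Library preparation, sequencing run and day cannot be told apart for UUO2. The 78 members' summed FPKM in the same 4 libraries, at 5280 to 5774, lay within the 4765 to 5936 of R1W. After rescaling they did not: the UUO2 sums, at 5895 to 6382, were all above the R1W sums, at 3991 to 5352, and overlapped those of Sham.

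In the first week after reversal few members changed. Against UUO7, 2 were higher and 2 lower in R1W as deposited (6.47% and 8.04% of all genes), and 2 and 2 after rescaling (7.26% and 7.14%). Mrps6, a small-subunit protein, rose to 172, 158, 191 and 198 FPKM, above all 4 UUO7 libraries (0.47 ± 0.14, adjusted p = 0.029, limma; 0.50 rescaled). Mrps6 shares 10.4% of its exon bases on the same strand with Slc5a3, a myo-inositol transporter gene, which averaged 7.75 FPKM in UUO7 and 14.7 in R1W; its part in the result was not tested. Mrpl1 rose from 6.81 to 7.94 FPKM (0.19, adjusted p = 0.037, limma). Mrps18b is a small-subunit protein whose exon bases overlap the antisense gene Gm16279 over 30.5%. It fell from 68.5, 54.9, 66.5 and 57.8 to 46.0, 44.1, 48.5 and 41.0 FPKM (-0.45, adjusted p = 0.011, limma). Its Sham libraries had 43.3 to 48.0 FPKM as deposited, but after rescaling all its R1W libraries lay under them. Mrpl52 fell from 301 to 228 FPKM (-0.40, adjusted p = 0.034, limma). These counts are small and unstable: without each library in turn 0 to 6 members were higher, 6 of them without R1W replicate 2, and 1 to 3 were lower. Of the 4 named only the fall of Mrps18b kept its call as deposited in every such fit; after rescaling it was lost in 4 of the 8.

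More members differed from UUO7 in R4W than in R1W, as did a larger share of all genes. Against UUO7, 4 were higher and 37 lower in R4W as deposited (17.6% and 30.8% of all genes), and 10 were higher and 20 lower after rescaling (25.1% and 23.2%). The genes that had risen most in obstruction came down: Mrpl52 had 179, 172, 168 and 142 FPKM in R4W (-0.86, adjusted p = 2.4e-05, limma). Mrpl33 had 98.4, 112, 106 and 92.4 FPKM (-0.78, adjusted p = 3.3e-05), and Mrpl23 averaged 3.80 (-0.64, adjusted p = 0.0003, limma). All 3 remained called after rescaling, at -0.75, -0.67 and -0.54. Of those that had fallen, Mrpl3 was higher than in UUO7 at 28.6, 31.1, 31.4 and 33.4 FPKM (0.72 ± 0.24, adjusted p = 0.02, limma). As deposited that call rests on UUO7 replicate 3 (0.45, adjusted p = 0.105, limma, without it). After rescaling the difference was 0.82 and remained called in all 8 fits without 1 library, at 0.56 without UUO7 replicate 3. Mrpl4 rose from 56.1 to 70.4 FPKM (0.32, adjusted p = 0.0017) and Mrpl16 from 26.5 to 32.4 (0.28, adjusted p = 0.0055, limma). The rescaled count of 20 lower became 11, 9 and 12 without UUO7 replicates 1 and 3 and R4W replicate 2, and that of 10 higher became 5, 5 and 6 without UUO7 replicate 4 and R4W replicates 1 and 4. Small-subunit members accounted for 5 of the 10 higher after rescaling, among them Mrps5 at 0.30, Mrps22 at 0.30, Mrps34 at 0.28 and Mrps6 at 0.39.

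At 4 weeks after reversal more members were called lower than Sham than higher on both scales. In R1W, 20 were higher and 19 lower than in Sham as deposited (59.4% and 14.7% of all genes), and 3 and 60 after rescaling (33.7% and 34.6%). In R2W the counts were 9 and 20 (56.1% and 12.9%), and 3 and 68 (31.1% and 32.5%). For R4W they were 3 higher and 27 lower as deposited (54.8% and 11.6%). After rescaling 72 of 78 were lower in R4W and 0 higher at an adjusted p under 0.05 in limma. At that threshold 31.1% of all genes were lower and 28.9% higher. The members' counts were the same at an unadjusted p under 0.05, for which the share of all genes was not counted. Median differences from Sham were 0.07, -0.07 and -0.14 in R1W, R2W and R4W, or -0.38, -0.45 and -0.51 rescaled. The 4 R4W libraries all lay under the 4 Sham libraries for 31 members as deposited and 74 after rescaling (11.6% and 30.7% of all genes). They all lay above for 6 members as deposited and 0 after rescaling (52.9% and 27.3%). All 27 members called lower in R4W as deposited were also lower after rescaling. With libraries set to equal column sums the balance was different: 15 members were higher and 9 lower in R2W than in Sham (58.9% and 10.8% of all genes), and 11 were higher and 13 lower in R4W (60.7% and 8.83%). As deposited, the 27 became 17 without Sham replicate 1 or R4W replicate 2, and the 20 of R2W became 13 without Sham replicate 1 or R2W replicate 1 and 9 without R2W replicate 3. After rescaling, 70 to 72 were lower in R4W without any 1 library. These comparisons share the 4 Sham libraries with each other and with those of UUO2 and UUO7.

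The largest rises against Sham after reversal were again of Mrpl33, Mrpl52 and Mrpl23. Mrpl33 differed from Sham by 1.00 in R1W, 0.69 in R2W and 0.42 in R4W, and Mrpl52 by 0.88, 0.67 and 0.42. Mrpl23 differed by 0.91, 0.61 and 0.44. All 9 passed the test as deposited (adjusted p of 0.0056 or less, limma). After rescaling they were 0.56, 0.30 and 0.04 for Mrpl33, 0.43, 0.28 and 0.04 for Mrpl52 and 0.56, 0.31 and 0.16 for Mrpl23, and the R4W values were not called. In R2W the rescaled calls of Mrpl33, Mrpl52 and Mrpl23 were lost in 2, 7 and 4 of the 8 fits without 1 library.

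Mrpl12 stayed low throughout, with R1W libraries at 153, 102, 142 and 156 FPKM, R2W libraries at 129, 168, 127 and 138, and R4W libraries at 141, 127, 137 and 141. No such library reached the lowest Sham value of 199. Its differences were -0.55, -0.52 and -0.55 (adjusted p = 0.00016, 0.00036 and 0.00025, limma), or -0.998, -0.91 and -0.92 rescaled. Mrpl16 likewise stayed below its Sham range in every library, with differences of -0.49, -0.43 and -0.41. Mrpl3 was lower in R1W at 21.8, 29.4, 8.82 and 15.4 FPKM (-0.91, adjusted p = 0.002, limma). In R4W it was near Sham only as deposited (-0.10, not called). After rescaling all its R4W libraries lay under all its Sham libraries. Its rise from R1W to R4W was 0.81 ± 0.24 (adjusted p = 0.027, limma), a call lost without R1W replicate 3 (0.51, adjusted p = 0.133), R1W replicate 4 (0.76), R4W replicate 3 (0.81) or R4W replicate 4 (0.78). After rescaling it was 0.88, and the call was lost only without R1W replicate 3 (0.58). Mrpl50 (-0.47, R2W) and Mrps36 (-0.39, adjusted p = 0.0029, limma, R4W) completed the largest falls. Mrpl11, Mrps17 and Mrpl55 in R1W and Mrpl40 in R2W changed direction with the scale. As deposited they were 0.24, 0.19, 0.17 and 0.20, and after rescaling -0.19, -0.25, -0.26 and -0.18. As deposited, the call of Mrpl55 was lost without Sham replicate 4 (0.15), and that of Mrps17 without Sham replicate 2 (0.18), Sham replicate 3 (0.18) or R1W replicate 3 (0.14). After rescaling the call of Mrpl40 was lost in 5 of 8 such fits, that of Mrpl11 in 4 and that of Mrps17 in 2.

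Between 1 and 4 weeks of recovery, 1 member was higher and 29 lower in R4W than in R1W as deposited (5.06% and 14.1% of all genes), and 1 and 6 after rescaling (8.67% and 8.6%). The 29 depend on single libraries: 5 were lower without R1W replicate 3 and 18 without R4W replicate 4. When only these 2 groups were fitted 0 members were called in either direction by limma, against 0.21% of all genes higher and 0.879% lower. At an unadjusted p under 0.05 that fit had 2 members higher and 36 lower, against 9.1% and 21.5% of all genes.

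The authors' deposited table of comparisons lies close to the rescaled counts. It comes from the same libraries, and its median over all genes was -0.018 in UUO7 against Sham. Its closeness is therefore not independent support for the rescaled counts. At the authors' adjusted p under 0.05 it has 4 members higher and 60 lower in UUO7 than in Sham (35.8% and 37.9% of the genes with an adjusted p there), and 10 higher and 33 lower in UUO2 (26.7% and 24.4%). For R1W the authors' deposited table has 4 higher and 54 lower (31.9% and 34% of genes). It has 4 and 69 for R2W (30.7% and 35.4%), and 1 and 73 for R4W (30.9% and 34.8%). In the authors' deposited table the differences of UUO7 from Sham were 0.75 for Mrpl52, 0.74 for Mrpl33, -1.17 for Mrpl12, -1.22 for Mrpl16 and -1.23 for Mrpl3.

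Other genes that serve mitochondrial translation were described by lists given for each role. Their counts for UUO7 against Sham stand beside 60.1% of all genes called higher and 17.8% lower as deposited, or 36.5% each way after rescaling. The 5 ribosomal proteins whose symbols lack the Mrp prefix were mostly called as deposited: 4 were higher in UUO7 than in Sham, and after rescaling 1 was lower. Dap3, a GTP-binding protein of the small subunit, went from 73.1 to 98.1 FPKM (0.41, adjusted p = 0.00021, limma; -0.07 and not called rescaled). Of 13 translation factors, 4 were higher and 7 lower as deposited, and 11 were lower after rescaling. Gfm1, the elongation factor that moves the ribosome along, had 74.2, 65.4, 70.5 and 70.1 FPKM in Sham and 28.6, 33.1, 35.5 and 29.2 in UUO7, with no overlap (-1.13 ± 0.12, adjusted p = 4.7e-08, limma). Taco1, a translational activator, fell from 16.1 to 9.18 FPKM (-0.75). Tufm, which delivers charged transfer RNAs, fell from 122 to 76.8 FPKM (-0.67, adjusted p = 2e-07, limma). In R4W Tufm was 96.5 FPKM, higher than in UUO7 (0.32, adjusted p = 0.0025) and lower than in Sham (-0.34, adjusted p = 0.00096, limma).

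Of 23 ribosome assembly factors, 9 were higher and 5 lower in UUO7 than in Sham, or 2 and 14 rescaled, beside the same shares of all genes. The 2 that rose on both scales were the helicase Dhx30, from 27.8 to 57.0 FPKM (1.00), and Mettl17, from 11.03 to 19.9 (0.80). Among 16 mitochondrial aminoacyl-tRNA synthetases, which charge the transfer RNAs, 2 were higher and 4 lower, and after rescaling 14 were lower; Yars2 fell most (-0.77). Of 11 genes of mitochondrial DNA transcription and transcript stability, 5 were higher and 3 lower, or 2 and 6 rescaled. The termination factor Mterf1a (0.83) and the DNA polymerase Polg (0.68) rose, and the messenger-stabilising protein Lrpprc fell (-0.66). The transcription factor Tfam fell from 39.6 to 31.7 FPKM (-0.32, adjusted p = 0.0045, limma), and the RNA polymerase Polrmt was 0.33 higher as deposited and -0.14, not called, after rescaling.

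Of 10 regulators of mitochondrial biogenesis, 4 were higher and 5 lower as deposited, and 4 and 6 after rescaling. Myc (3.22) and the coactivator Pprc1 (1.25) rose, while Ppargc1b (-1.01), Ppargc1a (-0.76) and Esrra (-0.61) fell. Ppargc1a, the best known coactivator of the program, had 7.99, 8.80, 9.07 and 10.3 FPKM in Sham and 4.6, 4.89, 4.96 and 5.17 in UUO7, without overlap, and 7.31 to 8.88 in R4W. Nrf1 was 0.63 higher (0.20 rescaled) and Gabpa 0.23 lower on the log2 scale, from 7.71 to 6.47 FPKM. The 13 proteins encoded by mitochondrial DNA had a median difference of -1.44 with 12 lower, or -1.92 with 13 lower after rescaling. In R4W, 11 of the 13 were still lower than in Sham, or 13 after rescaling (11.6% and 31.1% of all genes). Against UUO7, 10 were higher in R4W on either scale (17.6% and 25.1%). Of the 2 mitochondrial ribosomal RNAs, mt-Rnr2 fell from 331 to 180 FPKM in UUO7 (-0.90) and mt-Rnr1 from 618 to 446 (-0.48, adjusted p = 0.012, limma). Among 90 nuclear genes of the respiratory chain and its assembly, 8 were higher and 62 lower, or 3 and 81 rescaled, with medians of -0.41 and -0.90.

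The proteins of the cytosolic ribosome had a higher median than the mitochondrial members on both scales, and the medians had opposite signs in UUO7 only after rescaling. Of 82 such genes, 80 were higher and 1 lower in UUO7 than in Sham (76 and 3 rescaled), with medians of 1.20 and 0.72. In R4W their median had come down to 0.54, or 0.16 rescaled, while that of the 78 mitochondrial members was -0.14, or -0.51. The difference between the lists was not tested.

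**Figure D4:**
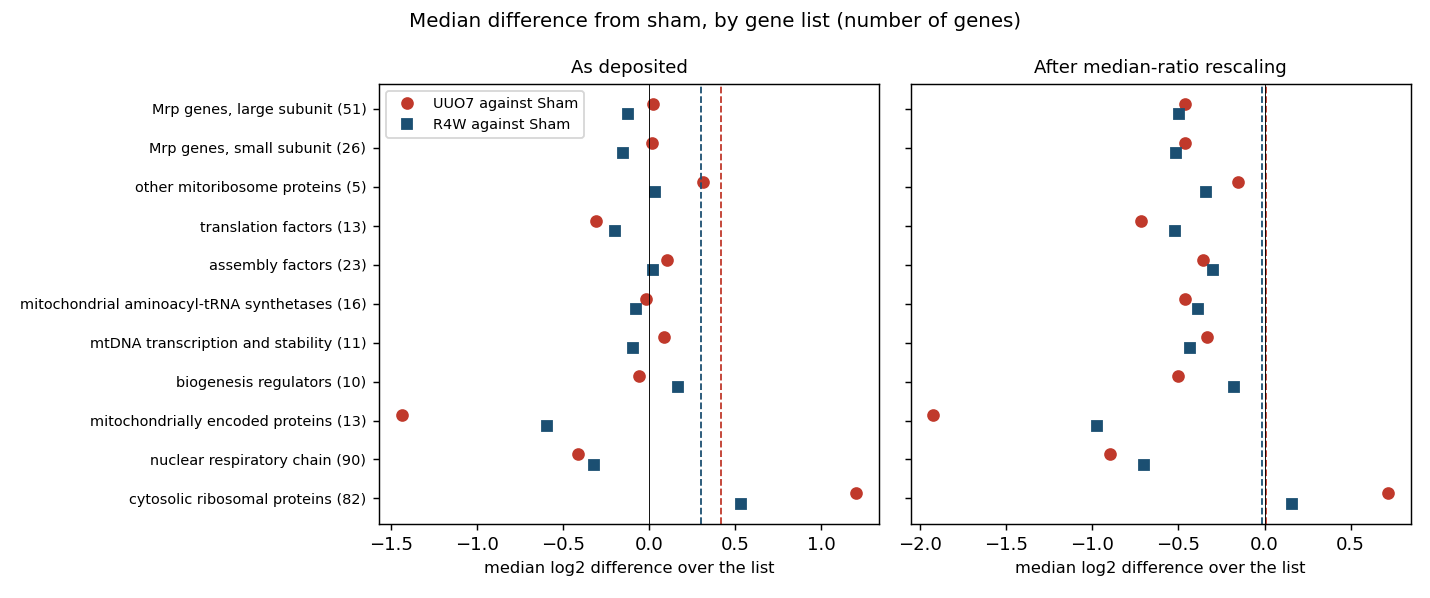
Median log2 difference from Sham over each list, with its number of genes, in UUO7 (circles) and R4W (squares), as deposited (left) and after rescaling (right); dashed lines are the medians of all genes. Both subunits lie at 0.02 in UUO7 as deposited and at -0.46 after rescaling, the 13 mitochondrially encoded proteins lie lowest and the 82 cytosolic ribosomal proteins highest.

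Marker genes of cell types moved with these groups, and in bulk tissue fewer cells of a type and less RNA per cell cannot be told apart. The summed FPKM of 9 proximal tubule markers was 5559 to 6255 in Sham, 1927 to 3386 in UUO2, 1042 to 1400 in UUO7, 1737 to 3177 in R1W, 1847 to 4095 in R2W and 2722 to 3927 in R4W. All 9 were lower in UUO7 than in Sham on both scales, and in R4W 8 of 9 were lower as deposited and 9 rescaled. The 5 distal nephron markers summed to 2476 to 3048 in Sham, 973 to 1232 in 3 UUO2 libraries and 2233 in UUO2 replicate 2, 1306 to 1672 in UUO7 and 2431 to 3148 in R4W. In UUO2, 4 of the 5 were called lower than in Sham on both scales. Without UUO2 replicate 2, 19 members were higher and 13 lower in UUO2 than in Sham as deposited, and 11 and 24 after rescaling. Markers of injured tubule, 3 genes, summed to 3.72 to 19.0 in Sham, 647 to 1085 in UUO2 and 1228 to 1567 in UUO7. After reversal they summed to 401 to 624 in R1W, 209 to 695 in R2W and 175 to 242 in R4W. The 7 macrophage markers summed to 55.1 to 94.6 in Sham, 1140 to 1355 in UUO7 and 777 to 1552 in R4W. All 7 were called higher than in Sham in UUO7 and in R4W on both scales. In UUO2 they summed to 96.3 to 220, with 5 called higher and 1 lower on both scales. The 6 fibroblast and pericyte markers summed to 25.7 to 61.8 in Sham and 274 to 321 in UUO7, and 4 lymphocyte markers to 0.95 to 1.16 and 6.89 to 11.03. The 3 podocyte markers summed to 33.8 to 37.2 in Sham and 84.3 to 120.3 in R4W, and the 3 endothelial markers to 36.8 to 69.5 and 91.2 to 111. In UUO2 the podocyte markers summed to 7.93 to 25.8, with 3 of 3 called lower than in Sham on both scales, and the endothelial markers to 19.3 to 43.6, with 2 of 3 lower as deposited and 3 rescaled. The 5 urothelial markers summed to 1.45 to 34.2 in Sham, 16.8 to 31.6 in UUO7 and 42.6 to 141 in R4W. Sham replicate 2 stood apart from the other Sham libraries, with 281 for the 4 adipose markers (39.8 to 48.1 in the others), 34.2 for urothelium (1.45 to 2.31) and 69.5 for endothelium (36.8 to 38.2). Without it, 25 members were higher and 20 lower in UUO7 than in Sham as deposited, and 3 and 60 after rescaling. In R4W 25 were then lower than in Sham as deposited and 72 after rescaling. Shares of all genes were not counted for the fits without Sham replicate 2 or UUO2 replicate 2. Adipose markers reached 1559 in R4W replicate 1 and 383.5 in R4W replicate 3, against 62.0 and 69.5 in the other two. The part of these shifts in the members' values was not tested.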

How the data were processed

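RNA of 24 mouse kidneys, 6 groups of 4 animals, was sequenced after polyA selection, per the labels. The series description gives pairs of 100-base reads for a run of 20 libraries. The run of the 4 UUO2 libraries is not described there. The submitters' processing notes name FastQC, RSEM, Bowtie2 and DESeq2 and the build mm10, without roles or versions. The authors deposited 1 table of 14785 genes, already filtered (its smallest gene mean is 1), with a value per library and the results of their own comparisons. The authors' values were read as FPKM from their behaviour, since the file headers name no unit: columns sum to similar but unequal totals and low values step in inverse proportion to transcript length. The authors' fold changes were read as log2 and as the second group over the first, from their slope against the library columns. The authors' adjusted p-values are used as deposited, and the adjustment behind them is not given in the sources used here. No count model was used.

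Groups come from sample titles. Members were the protein-coding rows with symbols Mrpl or Mrps and a number; members, lists and tests were chosen with earlier results of these data known. limma 3.58.1 (R 4.3.3; lmFit, eBayes with trend) was fitted to log2(FPKM + 1) of all genes and all 24 libraries, with Benjamini-Hochberg adjustment over all 14785 genes. Adding 1 before taking logs makes the changes of low genes look smaller. Median-ratio rescaling used, for each library, the median over 14402 genes of the ratio to the geometric mean of that gene; the factors were 0.789 to 0.870 in Sham, 0.883 to 0.905 in UUO2, 1.12 to 1.18 in UUO7 and 0.990 to 1.19 after reversal. On simulated data for UUO7 against Sham with 14785 genes and 200 changed by 1 on the log2 scale, the fit recovered 188 and called 9 unchanged genes. Lists were described by counts and medians, with no test. Members named with values were up to 3 called rises and 3 called falls of largest size per comparison, up to 6 called in opposite directions by the 2 scales, the 3 highest and 3 lowest means and a roster chosen by role; of each list, up to 3 called genes and a roster. Identifiers were compared with GENCODE M21, where 72 of 78 members have the same start and end. Promoter windows are from RefSeq on GRCm38.p6. The list genes Mtrfr, Gtpbp5 and Mars2 and some lymphocyte markers, among them Ms4a1 and Cd79a, were not analysed here. Alternatives were another scaling, 0.1 or 10 in place of the added 1, only genes averaging at least 5 FPKM, other sets of libraries, the replicate number as a block, R4W replicate 2 placed in R2W, and leaving out each library. Replicate numbers name different animals: deviations of same-numbered libraries correlated at -0.17 to 0.15 on average over the comparisons, so they were not taken as pairs.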

Additional observations from a re-analysis of the deposited data

Results flagged for a closer look

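A library far from the other 3 of its group was found in 11 of 222 groups tested, over 35 members named in the text, the summed level and 1 other measure; chance at 1 in 20 gives 11. In Mrpl3, UUO7 replicate 3 was low at 10.32 FPKM against 21.9 to 23.3 in the others, and Sham replicate 4 was low at 30.02 against 34.3 to 34.9. Sham replicate 1 was high for Mrpl41 at 62.36 FPKM (59.0 to 59.6 in the others), and Sham replicate 2 was high for Mrps24 at 102.99 (96.9 to 97.1). R1W replicate 3 was high for Mrpl52 at 267.82 FPKM (213 to 215) and for Mrps33 at 126.63 (86.4 to 89.4). R2W replicate 2 was high for the summed FPKM of the members at 5387.03 (4900.0 to 4959) and for Mrpl2 at 96.95 (87.6 to 87.9). R4W replicate 1 was high for the summed FPKM at 4810.34 (4659 to 4681), for Mrpl21 at 48.86 (45.7 to 46.0) and for Mrpl55 at 38.9 (36.9 to 37.1).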

How the results depend on the processing

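Under median-ratio scaling, members called higher and lower were 8 and 25 in UUO2 against Sham (median -0.16), 3 and 61 in UUO7 against Sham (median -0.46), 0 and 57 in UUO7 against UUO2 (median -0.31), 10 and 20 in R4W against UUO7 (median -0.065), 3 and 60 in R1W against Sham (median -0.38), 3 and 68 in R2W against Sham (median -0.45), and 0 and 72 in R4W against Sham (median -0.51); 6 were lower in R4W than in R1W. With that scaling 37 of the 78 members changed sign in UUO7 against Sham, 43 in UUO7 against UUO2, 42 in R1W against Sham and 23 in R2W against Sham. Among them in UUO7 against Sham were Mrpl48 (-0.20), Mrpl11 (-0.19), Mrpl21 (-0.21), Mrps17 (-0.23), Mrps30 (-0.23), Mrpl2 (-0.27), Mrpl41 (-0.47) and Mrps12 (-0.34). Among those in UUO7 against UUO2 were Mrps33 (-0.0030), Mrpl9 (-0.18), Mrpl11 (-0.17) and Mrps24 (-0.21), in R1W against Sham Mrpl11 (-0.19), Mrps17 (-0.25) and Mrpl55 (-0.26), and in R2W against Sham Mrpl40 (-0.18). With equal column sums the median was -0.081 in UUO2 against Sham. In that fit 25 members were higher in UUO7 than in UUO2 (median 0.10), against 55.7% of all genes. In R4W 8 were higher than in UUO7, against 19.3% of all genes. In R2W 15 were higher and 9 lower than in Sham (58.9% and 10.8%). In R4W 11 were higher and 13 lower than in Sham (60.7% and 8.83%), with a median of -0.051. Mrps6 in UUO7 against Sham turned to 0.0075. With only the 2 groups compared, 9 were higher in UUO7 than in UUO2 (50.5% of all genes) and 1 in R1W than in UUO7 (5.55%). In R4W 9 were higher than in UUO7 (19.2%) and 6 higher than in Sham (57.5%). In R4W against R1W 0 and 0 were called (0.21% higher and 0.879% lower). With the replicate block 1 was higher in R1W than in UUO7 on either scale, and no other count moved by over 1.5 times. Without UUO2, 1 was higher there after rescaling. With R4W replicate 2 placed in R2W, 12 were lower in R4W than in UUO7 and 1 higher in R2W than in Sham after rescaling.

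Without each library in turn the counts as deposited ranged from 8 to 16 lower in UUO2 against Sham, 0 to 6 higher and 1 to 3 lower in R1W against UUO7, 9 to 23 lower in R2W against Sham, 17 to 25 lower in R4W against Sham, and 0 to 1 higher and 5 to 37 lower in R4W against R1W. After rescaling they were 0 to 1 higher in UUO7 against UUO2, 0 to 6 higher and 0 to 2 lower in R1W against UUO7, 5 to 10 higher and 9 to 23 lower in R4W against UUO7, 0 to 3 higher in R2W against Sham, and 0 to 2 higher and 1 to 26 lower in R4W against R1W, with 26 without R1W replicate 2 and 1 without R1W replicate 3. In UUO7 against Sham, Mrpl41 ranged from -0.068 to 0.049, Mrps6 from -0.11 to 0.15 and Mrps18a from -0.076 to 0.014, and in UUO7 against UUO2 after rescaling Mrps33 ranged from -0.062 to 0.061. Without UUO7 replicate 2, Mrps12 in UUO7 against Sham was called (0.21), and without UUO2 replicate 3, Mrpl23 in UUO7 against UUO2 was called after rescaling (0.37). The counts of UUO7 against Sham stayed at 22 to 29 higher and 19 to 21 lower as deposited, and at 3 higher and 51 to 62 lower rescaled. Shares of all genes were not counted for the fits that left out single libraries. The cause of these changes was not tested. The depth of UUO2 is unknown.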
